A study of Mus musculus with 35 samples.

Results

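Axon guidance ligands and receptors were followed in mouse hippocampus after pilocarpine-induced status epilepticus (SE), a prolonged seizure. The genes were chosen by symbol from the mRNA count table: semaphorins of classes 3 to 7, plexins and neuropilins, ephrins and Eph receptors, Slits and Robos, and netrins with Dcc and the Unc5 receptors. The rule found 69 genes among the 43629 listed, of which 33068 had a symbol. They comprised 20 semaphorins, 11 plexins and neuropilins, 14 Eph receptors, 8 ephrins, 7 Slit and Robo genes, and 9 netrin, Dcc and Unc5 genes, or 35 ligands and 34 receptors in all. The rule itself used symbols alone.

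Guidance ligands are secreted or membrane-bound proteins that attract or repel a growing axon, and each family has its own receptors on the growth cone. Class 3 semaphorins act through neuropilins and plexins, most other semaphorins bind plexins directly, ephrins bind Eph receptors, Slits bind Robos, and netrins act through Dcc and Unc5. In the adult hippocampus many of these genes stay active and are known for shaping dendritic spines, synapses and the laminated paths of axons.

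The mice were wild type C57BL/6J animals of both sexes, 6 to 7 weeks old. By the study's methods all received scopolamine, which blunts peripheral cholinergic effects, and then either intraperitoneal pilocarpine, a muscarinic agonist given from a first dose of 350 mg/kg with further injections until SE, or saline vehicle. A supplementary list of the study gives other doses for some of the animals. The left hippocampus was taken 1, 8, 36 or 120 h after the start of seizures and polyA RNA was sequenced. There were 19 libraries: 2 control and 3 SE at 1 h, 3 control and 2 SE at 8 h, 3 SE at 36 h, 3 SE at 120 h, and 3 controls shared by the 36 h and 120 h comparisons. Whole hippocampus mixes neurons, glia and vessels, so fewer cells of a type and less RNA per cell cannot be told apart.

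The libraries held between 8503816 and 28465548 counted reads. All 10 hippocampal neuron markers listed for checking the tissue were at 1 CPM (reads scaled to library size) or more in each of the 19 libraries. Batches, as the labels name them, were uneven: at 8 h control replicate 1 came from batch G511 and the other 4 libraries from G317, at 1 h each group drew on G511 and G369, and all later libraries were G545. Sex, read from Xist and Ddx3y counts, was uneven at the late times. All SE 36 h libraries and SE 120 h replicates 1 and 2 read as male, while late control replicates 2 and 3 read as female. For 2 control libraries these counts went against the study's sex list. A choroid plexus score, the mean log2 CPM of 18 choroid plexus genes such as Ttr, also set libraries apart within groups. Among the late libraries it was 5.44, 5.40 and 5.65 in SE 36 h replicates 1 and 2 and SE 120 h replicate 3, and between 0.38 and 0.92 in the other 6. At 8 h it was 3.26 and 3.60 in control replicates 1 and 3 and between 5.34 and 5.65 in the others, and at 1 h it lay between 5.34 and 6.32 in all 5.

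In control hippocampus the guidance genes spanned a wide range of levels. Levels between genes were compared as FPKM, here TMM-scaled CPM per kilobase of annotated exon, as mean ± SD over the 8 control libraries. Epha4, an Eph receptor that binds ephrins of both classes, was the highest at 62.8 ± 11.6 FPKM. Next in order were 3 genes of 3 families: the ligand Efnb3 at 47.0 ± 3.09, the ligand Slit1 at 47.0 ± 5.21, and the netrin receptor Unc5a at 37.4 ± 13.5. Sema7a, a membrane-anchored semaphorin, followed at 34.2 ± 4.93, and Sema6b, a transmembrane semaphorin, at 28.4 ± 7.99. These levels overlapped between neighbours over the control libraries, except that Epha4 stood above Efnb3 in each of them. Over the whole order 66 of the 68 neighbouring pairs overlapped.

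Ligands and receptors were found at both ends. Efna3, a membrane-anchored ephrin, stood at 26.8 ± 5.35 FPKM, while Efna4 and Epha1 were barely detected and averaged 0.271 and 0.049 FPKM. Nrp1, the co-receptor of several class 3 semaphorins, led its family at 24.6 ± 5.52 FPKM and was followed by its partner Plxna1 at 22.8 ± 2.29. Ephb6, an Eph receptor without kinase activity, stood at 20.2 ± 4.40, Slit3 at 11.6 ± 2.20 and Unc5b at 6.66 ± 1.54. By family the median member level was highest for plexins and neuropilins, at 10.8 FPKM, where the lowest member still reached 4.92. It was 6.93 for Slit and Robo genes, 5.07 for semaphorins, 4.44 for Eph receptors, 4.02 for the netrin group and 3.64 for ephrins. In all, 51 of the 69 genes averaged at least 10 CPM in controls and 3 averaged under 1 CPM.

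**Figure D1:**
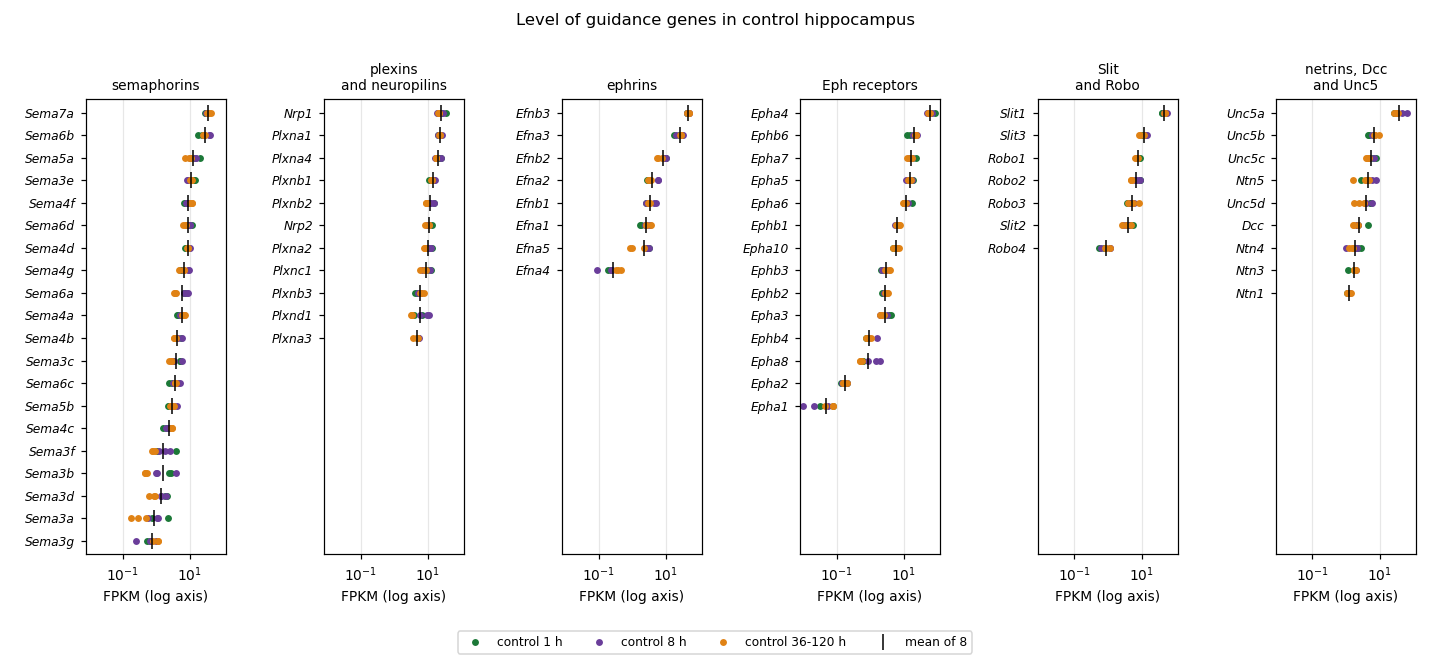
Level of each guidance gene in the 8 control libraries, in FPKM on a log axis, by family, with points coloured by control group and a bar at the mean (values under 0.01 are drawn at 0.01). Epha4, Efnb3 and Slit1 lie farthest right, and the late controls sit apart from the others for genes such as Sema3b and Plxnd1.

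Control levels also differed between the 3 control groups. The late controls were of another batch than the earlier ones, so batch and time cannot be told apart there. The 1 h and 8 h groups shared batch G511, with 1 control library each. Tissue content differed too. The choroid plexus score was 0.55 to 0.92 in the late controls and 3.26 to 5.80 in the earlier ones. The cortex score, the mean log2 CPM of cortex markers, was 4.50 to 4.71 in the late controls and 5.15 to 5.96 in the earlier ones, and the thalamus score was 2.83 to 3.48 against 3.79 to 4.50. The part of these 3 scores in these levels was not tested. Sema6a averaged 6.97, 7.88 and 3.74 FPKM in the 1 h, 8 h and late controls, Robo2 9.04, 7.53 and 4.93, and Plxnd1 5.27, 8.72 and 3.35. In the G511 controls of 1 h and 8 h Sema6a held 63.0 and 58.5 CPM, Robo2 151 and 145 CPM, and Plxnd1 47.9 and 43.8 CPM. In the other 1 h control, of G369, Sema6a held 59.2 CPM, Robo2 148 CPM and Plxnd1 27.9 CPM. The G317 controls of 8 h held 72.0 and 76.5 CPM, 109 and 119 CPM, and 66.7 and 77.6 CPM in the same order. Each SE group was therefore compared with the controls labelled for it. The late controls are labelled 36-120 h as a source and t0 in their titles, so they cannot be taken as matched in time to either late SE group.

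The comparison of SE with control at each time asked which guidance genes differed early, after SE and in the latent period. Tests were edgeR quasi-likelihood tests over all genes that passed a filter on low counts, with Benjamini-Hochberg adjusted p-values called at 0.05. Fold changes are log2 values ± standard error. That error was derived from the test, as the size of the log2 fold change divided by the square root of the F statistic. Of the 69 genes 67 could be tested at 1 h and 8 h and 68 at 36 h and 120 h. Epha1 was untested at all 4 times and Efna4 at 1 h and 8 h. At 1 h 0 of 67 genes were called (0.0799% of all genes) and at 8 h 0 of 67 (0.0% of all genes). At 36 h 0 of 68 were called (0.0252% of all genes) and at 120 h 1 of 68 (0.0563% of all genes). The 1 called gene was Sema3e, which fell at 120 h.

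At an unadjusted p of 0.05, without correction for the number of genes, the guidance genes passing were 1 of 67 at 1 h (1.49%, against 4.39% of all genes), 4 of 67 at 8 h (5.97% against 9.47%), 5 of 68 at 36 h (7.35% against 7.89%) and 10 of 68 at 120 h (14.7% against 9.6%). At 120 h these were 3 higher in SE and 7 lower, where all genes gave 4.54% higher and 5.06% lower. Of the 10, 7 were receptors (2 higher and 5 lower) and 3 were ligands (1 higher and 2 lower). By DESeq2 the adjusted count was 0, 1, 0 and 4 over the times in order, where 0.247%, 0.382%, 0.429% and 0.59% of all genes were called. By edgeR's likelihood ratio test it was 0, 1, 2 and 3, where 0.424%, 0.57%, 0.789% and 0.475% of all genes were called. The median log2 fold change of the guidance genes was 0.03, -0.02, -0.03 and -0.02 over the 4 times, near 0 at each. SE and control libraries did not overlap for 13 genes at 1 h (19.4%, against 18.5% of all genes), 18 at 8 h (26.9% against 28.0%), 8 at 36 h (11.8% against 14.3%) and 12 at 120 h (17.6% against 15.4%).

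**Figure D2:**
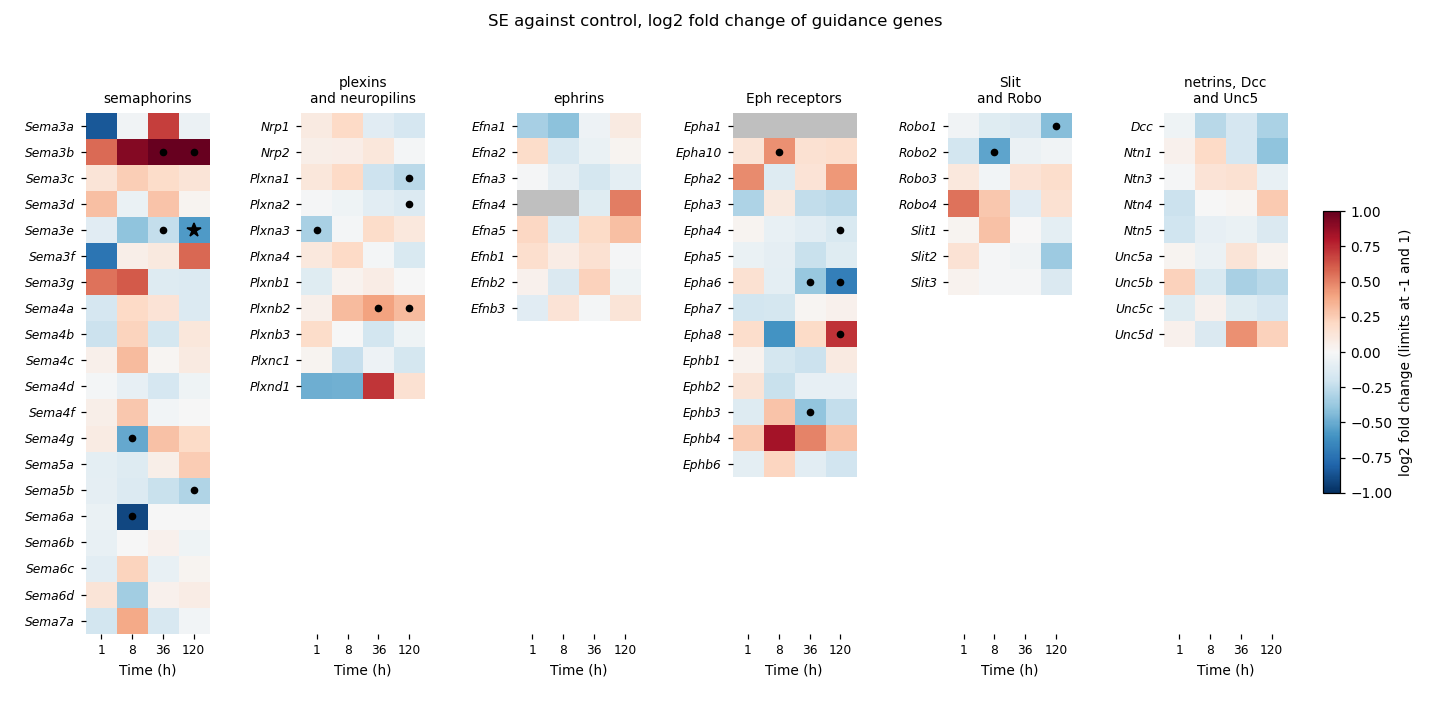
Log2 fold change of SE against control for each guidance gene at 1, 8, 36 and 120 h, by family, on a colour scale that ends at -1 and 1, with grey for untested genes. A dot marks an unadjusted p under 0.05 and the star an adjusted p under 0.05, which Sema3e reached at 120 h with a log2 fold change of -0.56.

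Among the semaphorins, Sema3e was lower at both late times and passed the test at 120 h. Sema3e is a secreted class 3 semaphorin that can bind its receptor Plxnd1 without a neuropilin. The gene (ENSMUSG00000063531) lies on the plus strand at chr5:14025276-14256689 of NCBIM37. The late controls held 79.4, 87.2 and 83.0 CPM, the SE 36 h libraries 65.6, 70.2 and 73.0 CPM, and the SE 120 h libraries 58.2, 50.9 and 58.7 CPM. Each SE library was below each control, and each 120 h library was below each 36 h library. At 120 h Sema3e fell by 32.4% (log2 fold change -0.56 ± 0.07, adjusted p = 0.0472). At 36 h the log2 fold change was -0.24 ± 0.07 with an adjusted p of 0.438. At 8 h both SE libraries, at 51.8 and 59.1 CPM, were below the 3 controls, at 85.6, 63.2 and 69.3 CPM (-0.40 ± 0.18, adjusted p = 0.54).

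The call of Sema3e depended on the test and the model. By the likelihood ratio test its adjusted p at 120 h was 3.56e-07 and by DESeq2 2.28e-07. It was 0.218 with a replicate block, 0.115 with a sex covariate, 0.0778 with a choroid plexus covariate and 0.188 in the model of all 19 libraries, so these 4 gave no call. When any 1 of the 6 libraries was left out, the log2 fold change stayed between -0.61 and -0.50 and the adjusted p between 0.0742 and 0.266, so no call remained. The hippocampal neuron score was 7.94 to 8.02 in the late controls and 7.77 to 7.95 in the SE 120 h libraries, and its part in the result was not tested. Plxnd1, the Sema3e receptor, held 25.0, 22.9 and 24.4 CPM in the late controls and 27.1, 30.2 and 22.6 CPM in the SE 120 h libraries, which overlapped.

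The promoter of Sema3e is shown with those of Epha6, Robo1 and Epha8, the other genes with the smallest p-values at 120 h for which RefSeq gave a window. Capitals mark the GC box, GGGCGG or its reverse complement, the binding letters of Sp1-type factors. The windows are 300 bases long, run 5′ to 3′ along the gene across its start, and follow build GRCm38.p6.
Sema3e, chr5:14025026-14025325, plus strand: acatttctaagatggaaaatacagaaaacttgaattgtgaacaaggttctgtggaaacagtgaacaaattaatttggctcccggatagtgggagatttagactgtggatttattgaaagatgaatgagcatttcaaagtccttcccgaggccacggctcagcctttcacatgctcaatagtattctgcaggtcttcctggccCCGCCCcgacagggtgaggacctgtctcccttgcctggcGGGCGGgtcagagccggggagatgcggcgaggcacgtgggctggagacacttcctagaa
Epha6, chr16:60605482-60605781, minus strand: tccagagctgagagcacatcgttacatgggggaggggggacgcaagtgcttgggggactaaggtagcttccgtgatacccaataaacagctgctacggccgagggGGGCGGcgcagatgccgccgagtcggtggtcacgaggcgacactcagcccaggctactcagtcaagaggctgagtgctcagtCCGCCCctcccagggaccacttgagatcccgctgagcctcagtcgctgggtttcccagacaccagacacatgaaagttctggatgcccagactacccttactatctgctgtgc
Robo1, chr16:72662899-72663198, plus strand: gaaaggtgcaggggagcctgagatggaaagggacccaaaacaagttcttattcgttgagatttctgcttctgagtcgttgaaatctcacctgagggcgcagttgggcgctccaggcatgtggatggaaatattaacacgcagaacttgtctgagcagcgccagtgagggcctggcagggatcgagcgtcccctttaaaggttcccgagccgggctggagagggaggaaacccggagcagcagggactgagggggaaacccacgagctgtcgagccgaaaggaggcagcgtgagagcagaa
Epha8, chr4:136956767-136957066, minus strand: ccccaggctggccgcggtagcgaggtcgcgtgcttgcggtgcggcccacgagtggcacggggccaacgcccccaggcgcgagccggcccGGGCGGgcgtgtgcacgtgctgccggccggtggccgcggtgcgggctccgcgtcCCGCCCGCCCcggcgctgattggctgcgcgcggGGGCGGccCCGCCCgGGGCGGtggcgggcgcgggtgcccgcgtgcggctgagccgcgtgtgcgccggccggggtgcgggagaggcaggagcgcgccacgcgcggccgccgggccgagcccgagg

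The 4 windows differed in base composition, with 50.7% G and C for Sema3e, 60.3% for Epha6, 57.0% for Robo1 and 84.3% for Epha8. The GC box was found in the windows of Sema3e, Epha6 and Epha8 and not in that of Robo1. It was present on either strand in 53 of 75 windows of guidance genes (70.7%) against 35.7% of all 32851 windows, where the median G and C share was 64.3% and 52.7%. The cyclic AMP response element, TGACGTCA, was in 1 window of a guidance gene, Epha2 (1.33%, against 1.79% of all windows). The AP-1 letters, TGANTCA, were in 3 windows, of Sema4c, Sema4d and Sema6b (4.0% against 7.81%). None of the 4 printed windows held either. A match describes the letters and no binding was measured.

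Sema6a had the smallest p-value of the guidance genes at 8 h. It is a transmembrane semaphorin that binds class A plexins. The controls held 58.5, 72.0 and 76.5 CPM and the SE libraries 32.1 and 41.6 CPM, with no overlap. The log2 fold change was -0.91 ± 0.20 with an adjusted p of 0.41. Within batch G317, where 2 controls met the 2 SE libraries, it was -1.01 ± 0.15 with an adjusted p of 0.00197, where 13.4% of all genes were called. Marker scores of some other cells were also lower in both SE libraries than in all 3 controls at 8 h. The oligodendrocyte score was 8.81 and 8.97 against 9.04 to 9.16, the microglia score 4.13 and 4.15 against 4.42 to 4.51, and the mural cell score 4.58 and 4.63 against 5.11 to 5.36. The astrocyte score stood the other way, at 8.326 and 8.312 in SE against 8.213 to 8.295 in controls. The part of these scores in the result was not tested. At 1 h the groups overlapped for Sema6a, with 63.0 and 59.2 CPM in controls and 73.8, 53.6 and 47.4 CPM in SE.

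Sema4g, another transmembrane semaphorin, was also lower at 8 h, with 30.5, 45.1 and 47.6 CPM in controls and 29.6 and 28.4 CPM in SE (-0.51 ± 0.22, adjusted p = 0.523). The control from batch G511 lay close to the SE libraries, and within G317 the log2 fold change was -0.69 ± 0.14 (adjusted p = 0.011). Sema7a stood the other way, at 115, 104 and 109 CPM in controls and 165 and 122 CPM in SE (0.38 ± 0.17, adjusted p = 0.53), and within G317 its adjusted p was 0.0675. The libraries of both genes did not overlap between SE and control.

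The 8 h count depended on control replicate 1. It is the 1 library of batch G511 at that time, so its batch and that animal cannot be told apart. With batch as a covariate 6 of 67 guidance genes were called, and 6 with the G511 control left out, against 13.5% and 13.4% of all genes. Both settings take the difference from the same G317 libraries, so they are not separate tests. The 6 were Sema6a, Sema4g and Plxnd1, lower in SE, and Epha10, Nrp1 and Sema3c, higher in SE, with no ephrin, Slit, Robo or netrin gene among them. Nrp1 and Sema3c, chosen here after their values were seen, had log2 fold changes of 0.37 ± 0.11 (adjusted p = 0.0408) and 0.59 ± 0.16 (adjusted p = 0.0309) with the covariate. Without it they were 0.20 and 0.24 with adjusted p-values of 0.729 and 0.772, since the G511 control held 165 CPM of Nrp1 and 42.7 CPM of Sema3c against 115 to 125 and 23.0 to 24.8 CPM in the G317 controls.

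**Figure D3:**
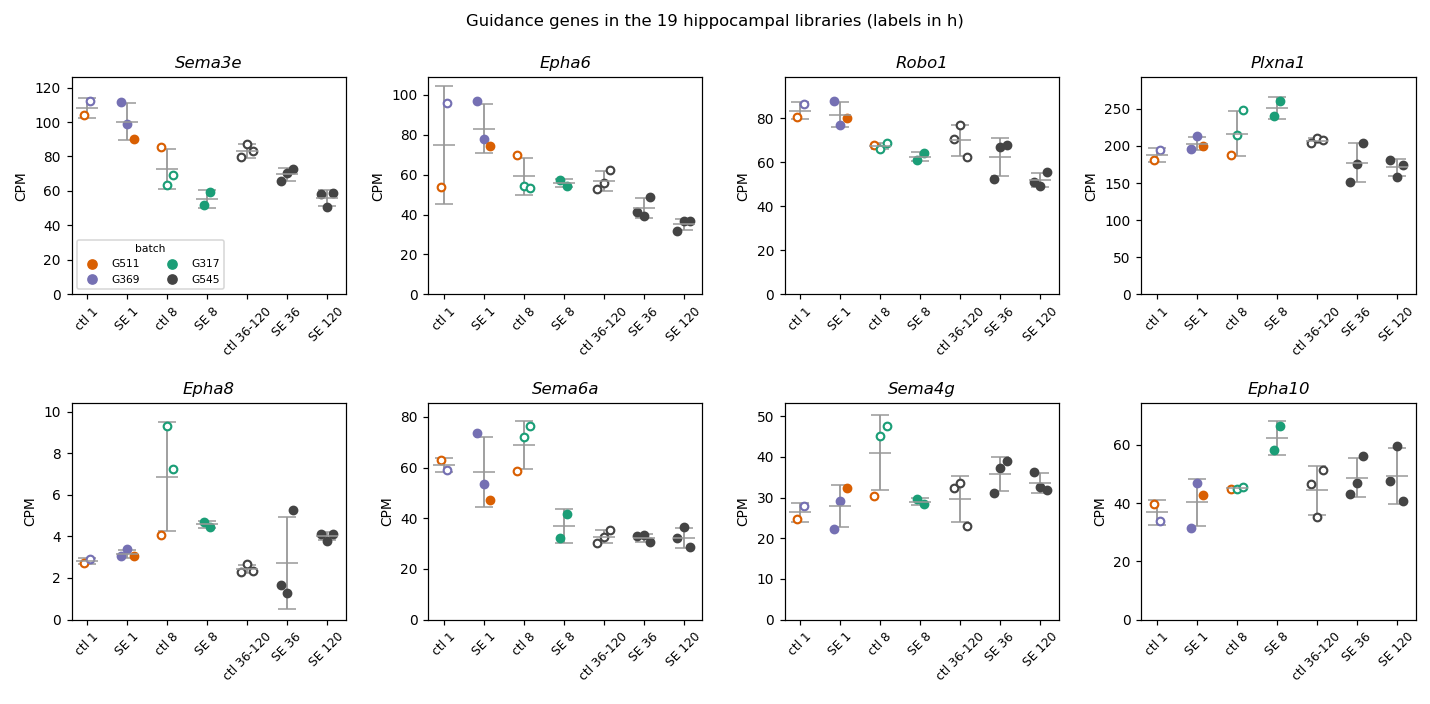
CPM of 8 guidance genes in each of the 19 libraries, with open points for controls, filled points for SE, colours for batch and bars for mean ± SD. Epha6 is lowest in the SE 120 h group, Sema3e lies there below its late controls, and for Sema4g the orange G511 control at 8 h sits with the SE libraries.

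Sema3b showed the largest late fold changes, and they followed the choroid plexus score. Sema3b is a secreted class 3 semaphorin. The late controls held 1.96, 2.02 and 2.35 CPM. The SE 36 h libraries held 13.3, 14.7 and 1.83 CPM and the SE 120 h libraries 2.74, 2.57 and 18.4 CPM, and the 3 values above 10 were those of the 3 late libraries with a high choroid plexus score. The log2 fold change was 2.25 ± 0.61 at 36 h (adjusted p = 0.386) and 1.89 ± 0.73 at 120 h (adjusted p = 0.466). With the score as a covariate at 36 h it was 0.02, and without the 2 high SE libraries, which leaves 1 SE library, it was -0.20. At 8 h the control with the high score held 17.2 CPM and the other 2 held 4.58 and 4.30 CPM, beside 16.7 and 16.3 CPM in SE.

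At 1 h no semaphorin passed an unadjusted p of 0.05. Sema3a, a secreted repellent of axons, held 23.5 and 7.49 CPM in controls and 5.79, 8.91 and 11.1 CPM in SE, which overlapped (-0.85 ± 0.45, adjusted p = 0.999). Its direction rested on control replicate 1, since the log2 fold change without that library was 0.19. Sema3d, also secreted, held 12.6 and 14.5 CPM in controls and 17.6, 17.5 and 15.0 CPM in SE without overlap (0.30 ± 0.18, adjusted p = 0.999). At 120 h Sema5b, a transmembrane semaphorin, was the remaining member under an unadjusted p of 0.05, at 25.0, 18.8 and 19.5 CPM in controls and 17.5, 17.9 and 15.7 CPM in SE (-0.30 ± 0.12, adjusted p = 0.484). The other semaphorins kept adjusted p-values above 0.05 at all 4 times, and the family median log2 fold change was -0.07, 0.03, 0.03 and 0.01 at 1, 8, 36 and 120 h.

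Of the plexins, the receptors of the semaphorins, Plxnb2 had the smallest p-value of all guidance genes at 36 h. Plxnb2 binds class 4 semaphorins. It held 65.6, 68.4 and 63.9 CPM in late controls, 85.9, 96.1 and 76.2 CPM at 36 h and 71.2, 73.0 and 101 CPM at 120 h. Each SE library was above each control at both times. The log2 fold change was 0.40 ± 0.09 at 36 h (adjusted p = 0.328) and 0.32 ± 0.13 at 120 h (adjusted p = 0.48). The 3 highest values were again those of the libraries with a high choroid plexus score, but the 3 SE libraries with a low score, at 71.2 to 76.2 CPM, also lay above the controls. With a choroid plexus covariate the log2 fold change at 36 h was 0.24 ± 0.09 (adjusted p = 0.311). By the likelihood ratio test the adjusted p of Plxnb2 at 36 h was 0.0322. In the quasi-likelihood test with 1 library left out at a time it was 0.00466 to 0.873. The astrocyte score was 8.36 to 8.53 in the 3 SE 36 h libraries and 8.10 to 8.25 in the late controls, and its part in the result was not tested. When SE 36 h replicate 3, the 1 SE 36 h library with a low score, was left out, 4 guidance genes were called at 36 h, where 2.9% of all genes were called. These were Plxnb2 (0.49 ± 0.08), Sema3b (2.75 ± 0.17), Epha6 (-0.48 ± 0.10) and Plxna2 (-0.34 ± 0.08).

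Plxnd1 at 36 h was set by 1 library. There the SE libraries held 18.7, 24.8 and 73.7 CPM against 25.0, 22.9 and 24.4 CPM in controls (0.71 ± 0.42, adjusted p = 0.73), so that the positive mean came from SE 36 h replicate 3. That library had the lowest choroid plexus score of the late libraries, 0.38, and the highest cortex score of the late libraries, 5.08. It also had the lowest oligodendrocyte, endothelium and mural cell scores of the 19, at 8.50, 3.46 and 4.31. The part of the cortex, oligodendrocyte, endothelium and mural cell scores in the result was not tested. With that choroid plexus score in the model Plxnd1 was called at 36 h at 1.5 ± 0.13 (adjusted p = 0.00163), against 0.196% of all genes. That value rests on SE 36 h replicate 3, the 1 SE library there with a low score. At 8 h Plxnd1 held 43.8, 66.7 and 77.6 CPM in controls and 50.7 and 40.3 CPM in SE, and at 1 h 47.9 and 27.9 CPM in controls and 19, 32.5 and 29.7 CPM in SE, both with overlap. The log2 fold change at 1 h was -0.49 ± 0.28 (adjusted p = 0.999).

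**Figure D4:**
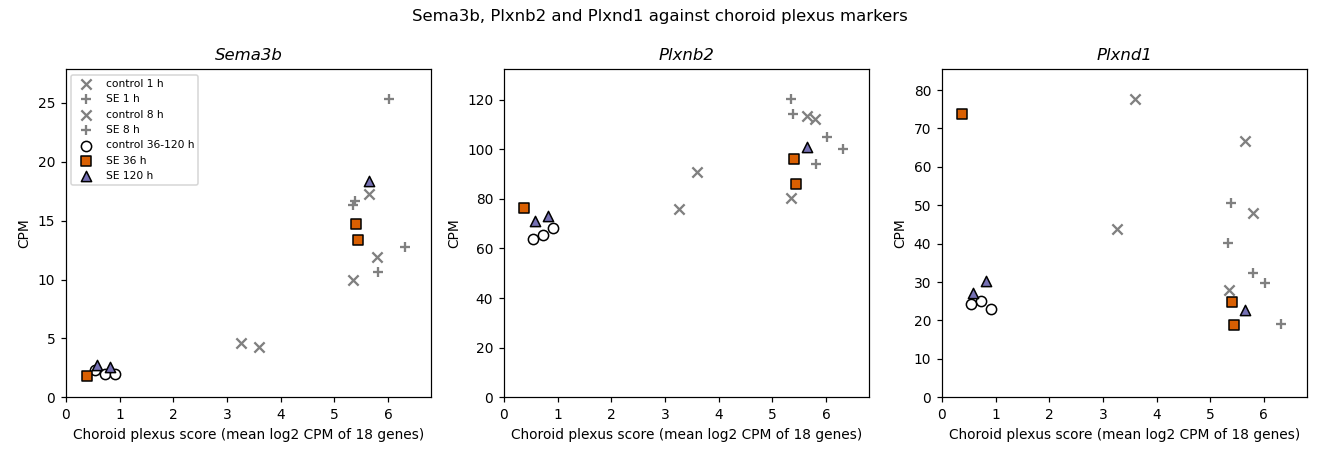
CPM of Sema3b, Plxnb2 and Plxnd1 against the choroid plexus score, the mean log2 CPM of 18 choroid plexus genes, for the 19 libraries. Sema3b lies at 1.83 to 2.74 CPM in late libraries with a low score and at 13.3 to 18.4 CPM in the 3 with a high score, and the Plxnd1 value of 73.7 CPM belongs to the SE 36 h library with the lowest score.

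Plxna1 and Plxna2, class A plexins that signal for neuropilins, were lower at 120 h. Plxna1 held 203, 211 and 208 CPM in controls and 181, 158 and 174 CPM in SE, without overlap (-0.27 ± 0.06, adjusted p = 0.273). Plxna2 held 119, 122 and 123 CPM in controls and 117, 101 and 111 CPM in SE, also without overlap (-0.14 ± 0.06, adjusted p = 0.494). Plxna3 was the guidance gene with the smallest p-value at 1 h, at 39.7 and 37.5 CPM in controls and 30.9, 29.0 and 32.6 CPM in SE (-0.33 ± 0.13, adjusted p = 0.999). None of the 3 passed the adjusted test in the main comparison, and by DESeq2 Plxna1 was called at 120 h (adjusted p = 0.0165). In the quasi-likelihood test with 1 library left out at a time the adjusted p of Plxna1 was 0.329 to 0.601. The family median log2 fold change was 0.05, 0.04, -0.02 and -0.04 over the 4 times. Nrp1 and Nrp2, the neuropilins, had log2 fold changes between -0.17 and 0.20.

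Ephrins, the membrane-bound ligands of the Eph receptors, gave no gene under an unadjusted p of 0.05 at any time. Efnb3, the ephrin with the highest control level, held 143, 159 and 159 CPM in late controls and 166, 174 and 160 CPM at 120 h (0.13 ± 0.06, adjusted p = 0.54). Its groups did not overlap at 120 h. Efna3 held 71.1, 70.4 and 64.0 CPM in late controls and 61.5, 54.1 and 63.4 CPM at 36 h (-0.18 ± 0.09, adjusted p = 0.662). The family median log2 fold change was 0.04, -0.13, -0.04 and 0.06 over the 4 times.

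Among the Eph receptors, which are receptor tyrosine kinases, Epha6 had values closest to the threshold. Epha6 is an Eph receptor of the A class found mainly in brain, and its gene (ENSMUSG00000055540) lies on the minus strand at chr16:59653309-60605357 of NCBIM37. The late controls held 52.6, 55.9 and 62.4 CPM, the SE 36 h libraries 41.3, 39.3 and 48.9 CPM, and the SE 120 h libraries 32.0, 36.6 and 36.9 CPM. Each SE library was below each control, and each 120 h library below each 36 h library. The log2 fold change was -0.38 ± 0.11 at 36 h (adjusted p = 0.393) and -0.69 ± 0.09 at 120 h (adjusted p = 0.0608). At 120 h its adjusted p was 1.48e-06 by the likelihood ratio test and 1.31e-07 by DESeq2, and over the libraries left out 1 at a time it was 0.0947 to 0.317, with log2 fold changes of -0.74 to -0.61. Over the 8 alternatives of test, scaling, filter and model, both of these tests included, the adjusted p of Epha6 ran up to 0.846. Its log2 fold changes there were -0.73 to -0.63.

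Epha8 stood the other way at a low level. It held 2.31, 2.67 and 2.35 CPM in late controls and 4.11, 3.77 and 4.14 CPM in SE at 120 h, with each SE library above each control (0.72 ± 0.17, adjusted p = 0.302). At 36 h its SE libraries were split, since replicate 3 was above and the others below the controls. Epha4, the most abundant of the guidance genes, held 372, 350 and 388 CPM in late controls and 325, 332 and 333 CPM at 120 h, without overlap (-0.15 ± 0.06, adjusted p = 0.475). The size of that difference was 10.1%.

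At 8 h Epha10, an Eph receptor with no kinase activity, was higher in SE. It held 44.9, 44.8 and 45.7 CPM in controls and 58.3 and 66.5 CPM in SE (0.46 ± 0.16, adjusted p = 0.494, and 0.0417 with batch as a covariate). Ephb4, known from blood vessels, held 3.94, 4.10 and 7.24 CPM in controls and 11.6 and 6.84 CPM in SE, which overlapped (0.83 ± 0.37, adjusted p = 0.527). At 36 h Ephb3 held 25.5, 17.9 and 23.6 CPM in controls and 16.9, 15.0 and 18.5 CPM in SE, and Epha5 held 145, 137 and 170 CPM in controls and 120, 120 and 143 CPM in SE. Both pairs of groups overlapped, and the log2 fold changes were -0.39 ± 0.15 (adjusted p = 0.56) and -0.22 ± 0.10 (adjusted p = 0.662). At 1 h Epha3 held 23.4 and 20.2 CPM in controls and 15.8, 17.2 and 19.8 CPM in SE (-0.31 ± 0.17, adjusted p = 0.999). The family median log2 fold change was 0.03, -0.09, -0.10 and -0.09 over the 4 times.

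Of the Slit and Robo genes, the receptor Robo1 had the smallest p-value at 120 h and Robo2 at 1 h and 8 h. The Robo1 gene (ENSMUSG00000022883) lies on the plus strand at chr16:72663394-73046340 of NCBIM37. Robo1 held 70.5, 76.9 and 62.5 CPM in late controls, 52.5, 66.9 and 67.9 CPM at 36 h, which overlapped, and 50.9, 49.1 and 55.4 CPM at 120 h, which did not. The log2 fold change at 120 h was -0.42 ± 0.09 (adjusted p = 0.221), with an adjusted p of 0.0144 by the likelihood ratio test and 0.00446 by DESeq2. Over the 8 alternatives of test, scaling, filter and model, both of these tests included, it ran up to 0.846. In the quasi-likelihood test with 1 library left out at a time the adjusted p of Robo1 was 0.185 to 0.583. Robo2 held 145, 109 and 119 CPM in controls and 77.3 and 96.4 CPM in SE at 8 h (-0.53 ± 0.19, adjusted p = 0.495, and 0.0579 with batch as a covariate). At 1 h it held 151 and 148 CPM in controls and 140, 130 and 124 CPM in SE (-0.18 ± 0.10, adjusted p = 0.999). The 3 Slit ligands passed no unadjusted p of 0.05. Slit1, the most abundant, held 273, 277 and 332 CPM in controls and 359 and 365 CPM in SE at 8 h, without overlap (0.29 ± 0.16, adjusted p = 0.581).

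The netrins, Dcc and the Unc5 receptors gave no gene under an unadjusted p of 0.05 at any time. Their log2 fold changes ran from -0.40, for Ntn1 at 120 h, to 0.46, for Unc5d at 36 h, and the family median was -0.01, -0.06, -0.07 and -0.14 over the 4 times. Unc5a, the most abundant, had log2 fold changes between -0.06 and 0.13, and Unc5b, next in level, between -0.32 and 0.23. SE and control libraries did not overlap for 0 of the 9 genes at 1 h, 36 h and 120 h and for 2 at 8 h.

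Whether the SE effect differed between times was tested in 1 model over all 19 libraries, where all 69 genes could be fitted. No guidance gene was called by edgeR's quasi-likelihood test from 1 h to 8 h (0 of 69, against 0.149% of all genes), from 8 h to 36 h (0, against 0.144%) or from 36 h to 120 h (0, against 0.0804%). At an unadjusted p of 0.05 there were 3, 9 and 3 genes, against 12.3%, 14.1% and 4.21% of all genes, and DESeq2 called 0, 1 and 0, against 0.8%, 1.2% and 0.161%. Sema6a led the first 2 contrasts, with a difference of -0.83 ± 0.24 from 1 h to 8 h (adjusted p = 0.183) and of 0.87 ± 0.23 from 8 h to 36 h (adjusted p = 0.125), and DESeq2 gave the latter an adjusted p of 0.0198. Since all controls of the late times are shared, the last contrast compares SE libraries of 120 h with those of 36 h. There Sema3e differed by -0.32 ± 0.11 (adjusted p = 0.879), Ephb1 by 0.31 ± 0.12 (adjusted p = 0.939) and Robo1 by -0.27 ± 0.11 (adjusted p = 1.0).

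Genes that act beside these ligands and receptors were read from 2 further lists. Of 23 co-receptors and other guidance cues 0 were called at any time by edgeR's quasi-likelihood test. At an unadjusted p of 0.05 there were 0 at 1 h, 4 lower at 8 h, 1 higher at 36 h and 4 lower at 120 h. The 4 lower at 8 h stand beside 5.52% lower among all genes, the 1 higher at 36 h beside 5.29% higher, and the 4 lower at 120 h beside 5.06% lower. At 8 h these included Ntng1, a membrane-anchored netrin-like adhesion protein (-0.70 ± 0.16, adjusted p = 0.41), Omg, a myelin glycoprotein (-0.61 ± 0.15, adjusted p = 0.432), and L1cam, an axonal adhesion molecule (-0.59 ± 0.19, adjusted p = 0.489). With batch as a covariate the adjusted p was 0.00804 for Ntng1, 0.00637 for Omg and 0.00242 for L1cam, where 13.5% of all genes were called. The oligodendrocyte score, 8.81 and 8.97 in SE against 9.04 to 9.16 in controls, was lower beside Omg, and its part in the result was not tested. The thalamus score at 8 h was 3.5 and 3.815 in SE against 3.813 to 4.501 in controls, which overlapped narrowly. Its part in the result of Ntng1 was not tested. At 36 h the 1 gene was Rgma, a repulsive ligand of neogenin (0.32 ± 0.11, adjusted p = 0.48). At 120 h Dscaml1, an adhesion protein, Lingo1, a partner of the Nogo receptor, and Lrrc4c, a ligand of netrin-G1, had log2 fold changes of -0.20, -0.22 and -0.20 with adjusted p-values of 0.43 to 0.466. At 1 h the smallest p-values were those of Neo1, Rtn4rl1 and Lingo1, with log2 fold changes of 0.17, 0.18 and -0.13. At 36 h Rtn4 and Cntn2 followed Rgma at -0.15 and -0.23.

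Of 49 growth cone effectors, which carry guidance signals to the cytoskeleton, 0 were called at any time by the same test. At an unadjusted p of 0.05 there were 0 at 1 h and 36 h, 2 higher and 2 lower at 8 h, and 3 higher and 5 lower at 120 h. All genes gave 3.95% higher and 5.52% lower at 8 h, 5.29% higher and 2.6% lower at 36 h, and 4.54% higher and 5.06% lower at 120 h. At 120 h Mical2, an actin-oxidizing enzyme of the family that acts in plexin signalling, was lower (-0.40 ± 0.06, adjusted p = 0.132), and Ablim3, an actin-binding protein, and Tiam1, an activator of Rac, were higher (0.39 ± 0.08 and 0.35 ± 0.08, adjusted p-values of 0.26 and 0.265). By the likelihood ratio test the adjusted p was 0.015 for Mical2, 0.0584 for Ablim3 and 0.0323 for Tiam1, and by DESeq2 it was 4.11e-07, 0.025 and 0.0168. In the quasi-likelihood test with 1 library left out at a time none was called. The adjusted p was 0.235 to 0.461 for Mical2, 0.2846 to 0.5785 for Ablim3 and 0.147 to 0.61 for Tiam1. At 8 h Srgap1, a Slit and Robo effector, was at -0.59 ± 0.20, Abl2, a kinase, at 0.54 ± 0.19, and Dpysl4, of the collapsin response mediators, at 0.43 ± 0.16, with adjusted p-values of 0.494 to 0.495. With batch as a covariate these were 0.0181 for Srgap1, 0.00133 for Abl2 and 0.0537 for Dpysl4. At 1 h Rock1, Mical1 and Dpysl3 had log2 fold changes of 0.38, 0.66 and -0.15, and at 36 h Mical2, Tiam1 and Fyn of -0.21, 0.18 and -0.14.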

How the data were processed

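The authors prepared stranded polyA libraries, aligned reads with HISAT2 2.1.0 to NCBIM37 and counted them per Ensembl gene with HTSeq, per the labels and the study's methods. The deposited values are whole-number counts per gene and library. The 16 small RNA libraries of the series were not used here. Counts were scaled by TMM and tested with edgeR 4.0.16 (R 4.3.3) quasi-likelihood fits, after edgeR's filter on low counts. SE at each time was set against the controls labelled for it. Differences between times came from 1 model of 7 groups. DESeq2 1.42.0, the likelihood ratio test, RLE scaling, no filter, covariates for batch, sex (from Xist counts) and choroid plexus score, a replicate block and leaving out each library were alternatives. Exon lengths are of GENCODE M1 on NCBIM37. The files list later gene IDs, so the counting annotation may differ, which bears on FPKM. Promoter windows and their coordinates are RefSeq's on GRCm38.p6, found for 59 of 69 genes. Scripts were tested on simulated data. Named were genes called, the 6 smallest p-values per time, the 2 highest control levels per family and, for each further list, the 3 smallest p-values per time. Genes named beyond this rule (Sema3c, Sema5b, Plxna2, Ephb1, Ntn1, Unc5d and the like) were picked after their values were seen. Members and lists were chosen with earlier results of these data known. Nothing in the labels ties replicates to separate litters, so p-values measure only the spread between these libraries.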

Additional observations from a re-analysis of the deposited data

Results flagged for a closer look

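In 2 genes every SE library lay on one side of its controls at 1 h and on the opposite side at 120 h, and this difference between times was not tested. They are 2.99% of the 67 guidance genes tested at both times, against 1.07% (167) of the 15568 genes tested at both. Efnb3 had a log2 fold change of -0.12 at 1 h and 0.13 at 120 h, and Plxna1 of 0.11 at 1 h and -0.27 at 120 h. Some gaps between groups were narrow. At 120 h the highest control held 159.1 CPM of Efnb3 and the lowest SE library 160.2 CPM. At 1 h the highest control held 194.8 CPM of Plxna1 and the lowest SE library 196.4 CPM. The pairs 1 h with 36 h and 8 h with 120 h were read in the same way and gave no guidance gene.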

How the results depend on the processing

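Counts of guidance genes at an adjusted p under 0.05 depended on the test and the libraries. At 1 h the count was 0, and 1 with no filter on low counts (1.35% of all genes). At 8 h it was 0, and 1 by the likelihood ratio test (0.57% of all genes) or DESeq2 (0.382%). It was also 1 with no filter (1.41%) and with all 19 libraries in 1 model (2.43%). Each of these calls was Sema6a. It was 6 with batch as a covariate (13.5%). Over the libraries left out 1 at a time it was 0 to 6 (6 without control 8 h replicate 1, 13.4%). At 36 h it was 0, and 2 by the likelihood ratio test, for Plxnb2 and Sema3b (0.789% of all genes). It was 1 with no filter (0.571%) or with a choroid plexus covariate (0.196%). Over the left-out libraries it was 0 to 4 (4 without SE 36 h replicate 3, 2.9%). The fit without the 2 SE libraries high in choroid plexus markers was added after seeing the data. It leaves 1 SE library, assumed to vary like the controls, so no count is given for it. At 120 h it was 1, and 3 by the likelihood ratio test (0.475% of all genes), 4 by DESeq2 (0.59%) and 3 with no filter (0.208%). It was 0 with a covariate for sex (0.00625%) or choroid plexus (0.0125%) and in the model of all libraries (0.0%). Over the left-out libraries it was 0 to 0. For the differences between times, from 1 h to 8 h it was 0, and 1 with no filter (1.76% of all genes) or batch as a covariate (7.49%) and 0 to 1 over the left-out libraries. From 8 h to 36 h it was 0, and 1 by the likelihood ratio test (1.14% of all genes) or DESeq2 (1.2%). It was 4 with no filter (2.73%) or batch as a covariate (13.7%). Over the left-out libraries it was 0 to 3 (3 without control 8 h replicate 1, 11.4%). From 36 h to 120 h it was 0, and 1 with no filter (0.568% of all genes). The replicate block gave 0 called guidance genes at each time, 0 in place of 1 at 120 h. The replicate numbers mark no shared animal, and same-numbered libraries correlated at -0.174 to 0.15, so the numbers were not taken as pairs. The sex covariate used Xist and Ddx3y counts, which went against the study's sex list for 2 control libraries. With the sex covariate 429 of 15850 genes were under an unadjusted p of 0.05 at 36 h, in place of 1251 in the main test. Of 684 repeats of the named genes' fold changes 682 kept their direction. The exceptions were Sema3a at 1 h without control replicate 1 (0.19, and -1.46 to 0.19 over the left-out libraries) and Sema3b at 36 h without the 2 SE libraries high in choroid plexus markers (-0.20). Of the 10 highest control levels per length 6 were also among the 10 highest in CPM. Apart from settings that drop libraries or the filter, or change the model, the cause of these changes was not tested.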
